A study of Mus musculus with 12 samples.

Results

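The genes of 10 enzymes of eicosanoid synthesis were followed across 12 arrays of mouse macrophages: the lipoxygenases *Alox5* and *Alox15*, the lipoxygenase partner *Alox5ap*, the cyclooxygenases *Ptgs1* and *Ptgs2*, the prostanoid synthases *Ptges*, *Hpgds* and *Tbxas1*, and the leukotriene enzymes *Ltc4s* and *Lta4h*. Their probes were found through the RefSeq transcript that each array probe carries, which gave 11 of the 55681 non-control probes. *Ptges* had 2 probes and each of the other genes 1. All 10 genes passed the filter on dim probes and were among the 20862 genes tested.

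Eicosanoids are signalling lipids made from arachidonic acid, which phospholipases release from membranes. Cyclooxygenases turn it into an unstable endoperoxide, from which separate synthases make the prostaglandins, prostacyclin and thromboxane, and lipoxygenases turn it into leukotrienes and hydroxy fatty acids. Macrophages of the peritoneal cavity are a classical source of both branches, and in mice *Alox15* encodes the 12/15-lipoxygenase for which resident peritoneal macrophages are known.

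The cells were adherent peritoneal macrophages of C57BL/6 mice, labelled WT and aged 8 weeks, in 3 groups of 4 arrays. Control cells received vehicle, IL4 cells received interleukin 4 at 10 ng/ml, and the remaining group received the same IL4 together with the plant anthraquinone emodin at 50 µM. No group had emodin without IL4. The sample descriptions give 6 h of treatment where the treatment protocol says overnight, and the design text of the series names white blood cells where the samples name peritoneal macrophages. All 10 macrophage markers on the array, *Adgre1*, *Csf1r* and *Gata6* among them, lay well above background on every control and IL4 array. With emodin 9 of the 10 did on every array, the exception being *Timd4*. The eosinophil granule genes *Epx*, *Prg2* and *Prg3* were above background on no array. Of the other eosinophil markers, *Siglecf* was above background on all arrays of every group. *Ccr3* and *Il5ra* were so on all IL4 arrays and on no emodin array. The part of eosinophils in these results was not tested.

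Levels are log2 intensity minus the 75th percentile of the same array, and every difference is relative to that scale. The 75th percentile itself was 447 to 516 intensity units on the emodin arrays, below the 761 to 813 of the IL4 arrays and the 633 to 810 of the control arrays (exact permutation test, two-sided, p = 0.0286 for both, the smallest that 4 against 4 arrays allow). Scaled instead to 7 Agilent spike-in probes, the median difference over all genes moved from 0.17 to -0.92 for emodin with IL4 against IL4 and from 0.15 to -0.80 against control, so emodin results are given on both scales where they part. The 4 emodin arrays lay on a slide of their own, and the effects of that slide and of emodin cannot be told apart. Control arrays lay in row 2 and IL4 arrays in row 1 of the other slide, and row and treatment cannot be told apart there either. The labels call replicates 1 and 2 of each group female and 3 and 4 male, yet *Xist* was above background on 6 of 6 arrays labelled male and 4 Y-linked genes were above background in 0 of 24 values there. No comparison of the sexes was therefore drawn, and for the 10 enzymes each call lost with only the 6 arrays labelled female is given beside the result. That setting leaves 2 arrays per group, and genes called for IL4 over the whole array fell from 3659 to 891. In RNA of whole cultures, fewer cells of a type and less RNA per cell cannot be told apart.

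IL4 raised both cyclooxygenases, thromboxane synthase and 12/15-lipoxygenase, and lowered prostaglandin D synthase and the 5-lipoxygenase partner. Of the 10 enzymes, 4 were called higher than in control (*Ptgs1*, *Ptgs2*, *Tbxas1*, *Alox15*) and 2 lower (*Hpgds*, *Alox5ap*) at a limma adjusted p below 0.05, where 8.98% of all genes were called higher and 8.56% lower (17.5% in either direction). The median log2 difference of the 10 was 0.07, and that of all genes -0.03. *Alox15* passed the filter on dim probes only through its IL4 arrays, and *Ptgs2* through its IL4 and emodin arrays, where each was high. Their calls are therefore not independent of that filter. With signal above background required on all 12 arrays, 2 enzymes were called higher and 2 lower, beside 1661 and 1706 of 18207 genes. With emodin beside IL4, 3 of the 10 were higher than with IL4 alone (*Ptgs2*, *Ltc4s*, *Alox5ap*) and 3 lower (*Ptgs1*, *Tbxas1*, *Alox15*), where 39.4% of all genes were called higher and 26.5% lower (65.9% in either direction). The enzymes' share of calls there was near that of the whole array. On the spike-in scale limma called 0 of the 10 higher and 7 lower than with IL4 alone, beside 3.46% and 80.7% of all genes (84.2% in either direction). Against control, emodin with IL4 gave 2 enzymes higher (*Ptgs2*, *Ltc4s*) and 3 lower (*Alox5*, *Hpgds*, *Tbxas1*), beside 37.3% and 25.6% of all genes (62.9% in either direction), or 1 higher and 7 lower on the spike-in scale, beside 4.12% and 75.6% (79.7% in either direction). For IL4 against control that scale gave 4 higher and 1 lower, beside 8.73% and 3.1% (11.8% in either direction). The 3 comparisons share arrays, so their values stand side by side and are not separate evidence.

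**Figure D1:**
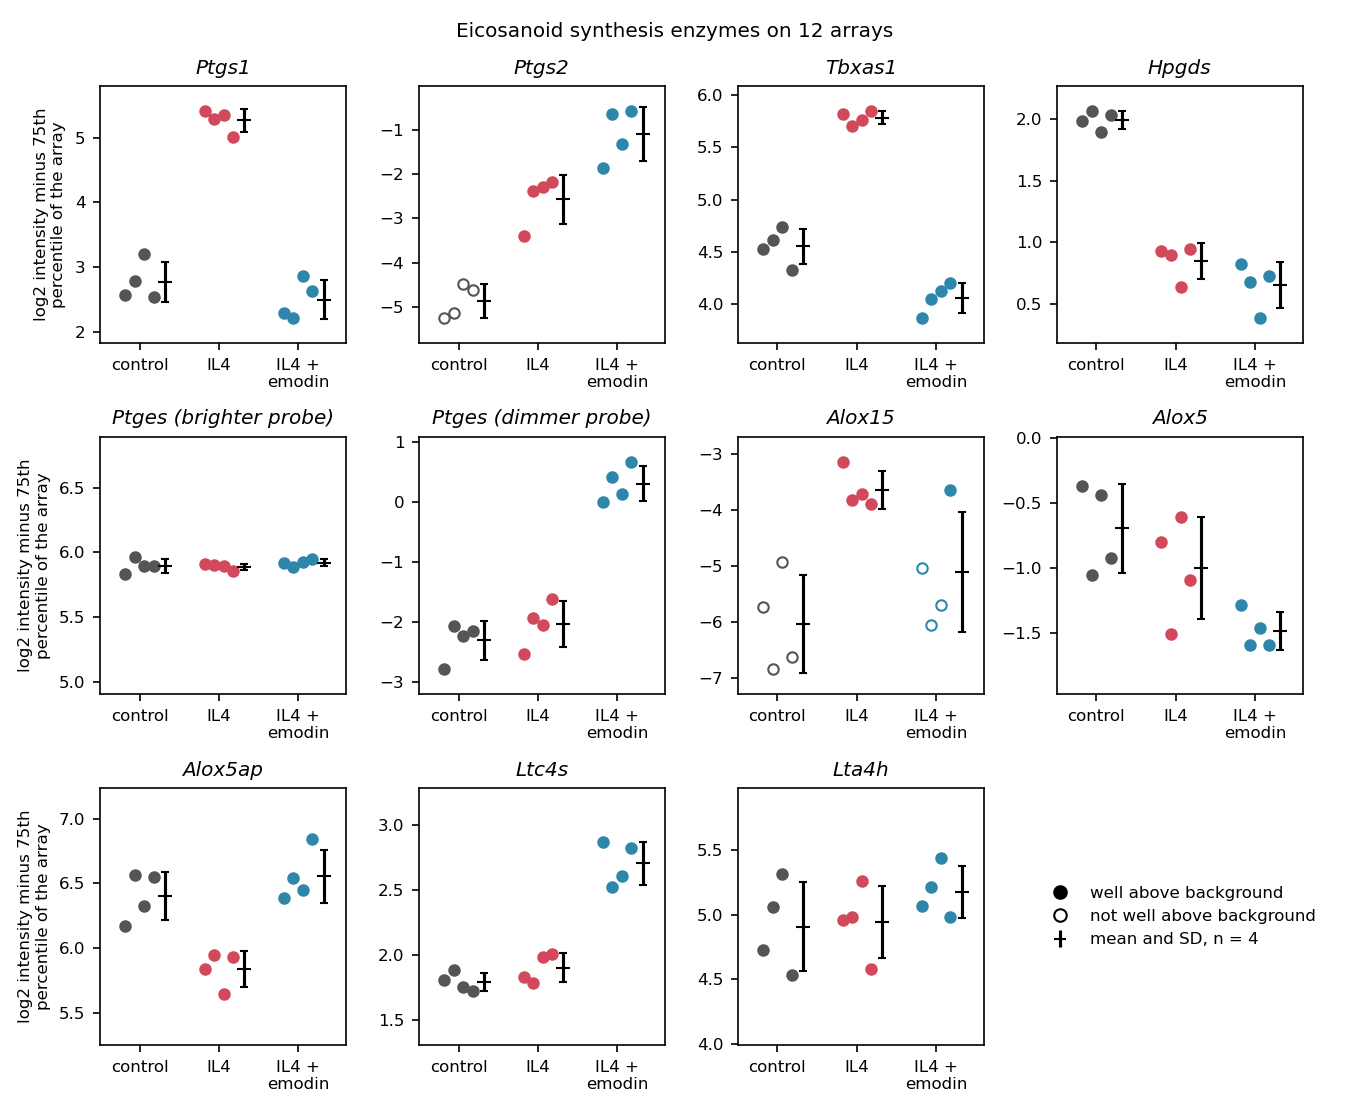
Levels of the 11 probes of the 10 enzymes on the 12 arrays, as log2 intensity minus the 75th percentile of the array; each point is an array, open where the probe was not well above background, with the group mean and SD (n = 4), and the vertical axes differ between panels. *Ptgs1* stands at 5.01 to 5.41 on the IL4 arrays and at 3.21 or below on all others, while *Ptgs2* is highest with emodin.

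*Ptgs1* encodes cyclooxygenase-1, the form found in many resting tissues. Its level was 2.57, 2.78, 3.21 and 2.54 on the control arrays, 5.41, 5.29, 5.36 and 5.01 with IL4, and 2.29, 2.21, 2.86 and 2.64 with IL4 and emodin. Every IL4 array lay above every other array, and the control and emodin arrays overlapped. IL4 raised it by 2.49 ± 0.18 (SE, n = 4 per group), or 5.63-fold (limma adjusted p = 1.62e-06). With emodin it fell by 2.77 ± 0.18 from the level with IL4 alone, or 6.82-fold (limma adjusted p = 9.48e-08). Against control the emodin group differed by -0.28 ± 0.18 (95% confidence interval -0.66 to 0.11, limma adjusted p = 0.189), and by -1.24 on the spike-in scale (limma adjusted p = 3.99e-06). IL4 therefore ranked above both other groups on either scale, while control and emodin were told apart only on the spike-in scale.

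*Tbxas1* encodes thromboxane A synthase, which turns the cyclooxygenase product into thromboxane. Its level was 4.53, 4.61, 4.73 and 4.33 in control, 5.82, 5.71, 5.76 and 5.85 with IL4, and 3.86, 4.05, 4.12 and 4.20 with emodin. The groups did not overlap, with IL4 highest and emodin lowest. IL4 raised it by 1.23 ± 0.10, or 2.35-fold (limma adjusted p = 4.84e-06). With emodin it was 3.31-fold lower than IL4 alone (a log2 difference of -1.73 ± 0.10, limma adjusted p = 4.37e-08) and 1.41-fold lower than control (-0.49 ± 0.10, limma adjusted p = 0.000981). Across the 12 arrays the genes whose levels ran closest to *Tbxas1* were *Spint1* (Pearson r = 0.994) and *Irf4* (r = 0.993), of 13196 named genes compared. For *Ptgs1* they were *Rtkn* and *Flt1* (r = 0.993 for both). The arrays of a group share a treatment and a slide, so these correlations describe the pattern of group means and carry no test.

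*Ptgs2* encodes cyclooxygenase-2, the inducible form. Its probe was spotted 10 times on each array, and spots were averaged. Its level was -5.25, -5.13, -4.48 and -4.62 in control, well above background on 0 of 4 arrays, then -3.41, -2.40, -2.31 and -2.19 with IL4, and -1.86, -0.65, -1.32 and -0.58 with emodin, well above background on all 8. The groups did not overlap and rose in the order control, IL4, emodin. IL4 raised it at least 3.98-fold on the 75th percentile scale (a measured log2 difference of 2.30 ± 0.33, limma adjusted p = 0.000443). With only the 6 arrays labelled female the difference was 2.29 (limma adjusted p = 0.0607). Measured differences were 2.42 on the spike-in scale and 0.89 with normexp background correction, and the latter falls short of the 3.98-fold bound. The gene passed the filter on dim probes only through the IL4 and emodin arrays, so p-values against control are not independent of that filter. With emodin it stood at least 11.1-fold above control (a measured difference of 3.77 ± 0.33, limma adjusted p = 1.35e-06). That bound belongs to the 75th percentile scale, and the measured difference was 2.81 on the spike-in scale (limma adjusted p = 4.12e-06) and 2.03 with normexp (limma adjusted p = 1.53e-06). It was also 2.78-fold above IL4 alone (1.47 ± 0.33, limma adjusted p = 0.00189), but the difference on the spike-in scale was 0.39 and not called (limma adjusted p = 0.284). An "at least" fold sets the brighter mean against, for each array of the dim group, the higher of the dimmest signal above background there and the probe's own signal. *Baiap2* (r = 0.985) and *Srpk1* (r = 0.980) had the patterns most like it, over arrays of which the 4 control ones were not above background.

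The sequence before the start of each of these 3 genes is shown because all 3 rose with IL4, while with emodin *Ptgs1* and *Tbxas1* fell and *Ptgs2* did not. Each runs 5′ to 3′ on the gene's strand over the 250 bases before the annotated start, from RefSeq on build GRCm38.p6: *Ptgs1* at chr2:36230176-36230425, *Ptgs2* at chr1:150099781-150100030 and *Tbxas1* at chr6:38918736-38918985, all on the plus strand. Capitals mark matches, on either strand, to 9 short motifs searched: the STAT palindrome with a spacing of 4, the STAT palindrome with a spacing of 3 (TTCNNNGAA), the ETS and IRF composite element, the PU.1 core GAGGAAGT, AP-1 TGANTCA, the CRE core TGACGT, the E-box CACGTG, C/EBP TTGCNNAA and TATAAA.
Ptgs1: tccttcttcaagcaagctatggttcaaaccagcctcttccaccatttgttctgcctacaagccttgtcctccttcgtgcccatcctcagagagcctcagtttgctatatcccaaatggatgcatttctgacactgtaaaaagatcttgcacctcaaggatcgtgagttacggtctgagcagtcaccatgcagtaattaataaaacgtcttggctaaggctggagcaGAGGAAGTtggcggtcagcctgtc
Ptgs2: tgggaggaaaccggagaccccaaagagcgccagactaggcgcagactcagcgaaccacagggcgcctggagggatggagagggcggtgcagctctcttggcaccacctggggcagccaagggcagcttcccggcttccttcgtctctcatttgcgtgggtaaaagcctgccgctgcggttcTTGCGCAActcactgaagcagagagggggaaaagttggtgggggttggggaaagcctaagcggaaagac
Tbxas1: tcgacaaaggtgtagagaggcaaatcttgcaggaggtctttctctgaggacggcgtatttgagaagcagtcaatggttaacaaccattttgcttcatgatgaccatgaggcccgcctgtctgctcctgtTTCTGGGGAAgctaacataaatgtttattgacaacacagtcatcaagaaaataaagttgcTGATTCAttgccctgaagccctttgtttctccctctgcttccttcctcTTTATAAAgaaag

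The *Ptgs1* window held 1 match, GAGGAAGT beginning 24 bases before the start, a motif found in 2.44% of 32851 promoters of the same length. The *Ptgs2* window held 1 C/EBP match, TTGCGCAA, which reads the same on both strands and begins 69 bases before the start; 9.56% of promoters hold that motif. The *Tbxas1* window held TTCTGGGGAA, a match to the STAT motif with a spacing of 4, beginning 121 bases before the start (5.85% of promoters). It also held the AP-1 match TGATTCA at 61 bases (6.75%) and 2 overlapping TATAAA matches, 1 on each strand, at 11 and 13 bases (12.4%). Among the other 5 enzymes with a promoter in the table, the same STAT motif matched in *Ptges*, 197 bases before the start, and *Hpgds* held the PU.1 core at 49 bases and a C/EBP match at 176, while *Alox5*, *Ltc4s* and *Lta4h* held no match. So the STAT, PU.1 and C/EBP motifs also occurred in enzymes not called higher with IL4, while the AP-1 and TATAAA matches were in *Tbxas1* alone. The promoter of *Alox15* was not in the table, and a link between motifs and the response to IL4 was not tested. A match is a string of letters and not a measured binding site. The table of promoters held 8 of the 10 enzymes.

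*Hpgds* encodes the haematopoietic prostaglandin D synthase, which macrophages share with mast cells. Its level was 1.98, 2.06, 1.89 and 2.03 in control, 0.93, 0.90, 0.64 and 0.95 with IL4, and 0.83, 0.68, 0.39 and 0.73 with emodin. Every control array lay above every treated array, and the treated groups overlapped. IL4 lowered it 2.20-fold (-1.14 ± 0.10, limma adjusted p = 1.35e-05). With emodin its level was 2.53-fold below control (-1.34 ± 0.10, limma adjusted p = 5.45e-07). It differed from IL4 alone by -0.20 ± 0.10 (95% confidence interval -0.43 to 0.03, limma adjusted p = 0.115), a difference that was called without IL4 replicate 3 (-0.27, limma adjusted p = 0.0419) and on the spike-in scale (-1.28, limma adjusted p = 8.46e-06). With the replicate number as a block that difference was called too (limma adjusted p = 0.0247), though the number was not taken to pair emodin arrays. *Sema4d* (r = 0.987) and *Abi3* (r = 0.986) ran closest to *Hpgds*.

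Mast cells, which also express *Hpgds*, *Alox5* and *Ltc4s*, were followed by their markers. Summed over the 9 of 10 markers on the array, their level was 0.822 to 2.31 times the 75th percentile of the array in control, 1.31 to 3.56 with IL4 and 1.12 to 2.91 with emodin. *Hdc*, *Cpa3*, *Kit* and *Tpsb2* were above background on all arrays of every group, and *Ms4a2* on no control or emodin array. *Kit* rose with emodin against IL4 (1.92, limma adjusted p = 2.78e-07), and *Hdc* rose with IL4 (1.75, limma adjusted p = 0.0113) and fell with emodin (-1.58, limma adjusted p = 0.00494). Platelets are rich in *Ptgs1* and *Tbxas1*; summed over the 7 platelet markers the level was 90.8 to 184 in control, 93.9 to 163 with IL4 and 106.8 to 204 with emodin. Nearly all of that sum was *Pf4*, which was called in no comparison (limma adjusted p = 0.743 to 0.926). *Treml1* was 1.30 higher with emodin than with IL4 alone (limma adjusted p = 1.81e-05) and *Gp1bb* 0.48 higher (limma adjusted p = 0.00548). *Pf4*, *Gp1bb* and *Treml1* were above background on all arrays of every group, and *Gp9*, *Gp1ba*, *Itga2b* and *Ppbp* on no array. These marker differences are on the 75th percentile scale alone, and a small rise with emodin need not hold on the spike-in scale. The part of mast cells and of platelets in these results was not tested.

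*Ptges* encodes microsomal prostaglandin E synthase-1, the inducible synthase of prostaglandin E2. Its 2 probes disagreed. The brighter probe, on which the gene was tested, lay between 5.83 and 5.96 on all 12 arrays, and the groups overlapped. It differed by -0.01 ± 0.06 for IL4 against control (limma adjusted p = 0.944), 0.03 ± 0.06 for emodin with IL4 against IL4 (limma adjusted p = 0.642) and 0.02 ± 0.06 against control (limma adjusted p = 0.742). On this probe the sign turned with quantile scaling, to -0.22 against IL4 (limma adjusted p = 0.00709) and -0.23 against control (limma adjusted p = 0.00605). On the spike-in scale it was -1.05 and -0.94 (limma adjusted p = 2.65e-06 and 9.70e-06).

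The dimmer *Ptges* probe read -2.79, -2.07, -2.24 and -2.15 in control, -2.54, -1.93, -2.06 and -1.63 with IL4, and 0.01, 0.41, 0.13 and 0.67 with emodin. All 4 emodin arrays lay above the other 8, and control and IL4 arrays overlapped. Adjusted over all probes kept, the difference for IL4 was 0.27 ± 0.22 (limma adjusted p = 0.452). The emodin group was 5.08-fold above IL4 alone (2.34 ± 0.22, limma adjusted p = 1.96e-06) and 6.13-fold above control (2.62 ± 0.22, limma adjusted p = 8.29e-07). The rise against IL4 was 1.26 on the spike-in scale (limma adjusted p = 0.000447). Which part of the transcript each probe reads is not given in the sources used here, so a level of *Ptges* as a gene cannot be stated from the pair.

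The lipoxygenase branch begins with *Alox15*, a gene that IL4 is known to induce in mononuclear phagocytes. Its level was -5.73, -6.84, -4.93 and -6.62 in control, well above background on 0 of 4 arrays, -3.14, -3.81, -3.71 and -3.89 with IL4, above background on all 4, and -5.03, -6.05, -5.69 and -3.63 with emodin, above background on 1 of 4. IL4 and control arrays did not overlap, but emodin replicate 4 lay within the IL4 range. IL4 raised it at least 2.07-fold on the 75th percentile scale (2.39 ± 0.51, limma adjusted p = 0.00673). The measured difference with normexp was 0.55, which falls short of that fold. *Alox15* passed the filter on dim probes only through the IL4 arrays. Its p-values for IL4 against control and for emodin with IL4 against IL4 are therefore not independent of the filter. The signal was small throughout, with a mean of 64.1 intensity units on the IL4 arrays against 13.0 in control and 17.7 with emodin. Only 1 probe carried the gene, and how well it reads *Alox15* was not tested. A control signal within background therefore does not show that resident macrophages lack its message.

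Emodin with IL4 gave *Alox15* a level that differed from IL4 alone by -1.46 ± 0.51 (limma adjusted p = 0.0249). Only 1 of the 4 emodin arrays was above background, and with the others at their background limit the IL4 mean stood 1.23-fold above the emodin mean. The call rested on single arrays and on the background correction. It was lost without IL4 replicate 1 (limma adjusted p = 0.0653), without emodin replicate 2 (limma adjusted p = 0.0746) or without emodin replicate 3 (limma adjusted p = 0.0671), and with normexp background correction the difference was -0.01 (limma adjusted p = 0.915). Against control the emodin group differed by 0.93 ± 0.51 (95% confidence interval -0.19 to 2.05, limma adjusted p = 0.133), or by -0.03 on the spike-in scale (limma adjusted p = 0.955). That difference was called with normexp (0.54, limma adjusted p = 0.00088) and without control replicate 3 (1.30, limma adjusted p = 0.0432). With 7 of 12 arrays not above background, no genes of similar pattern are given for *Alox15*.

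*Alox5* encodes 5-lipoxygenase, which makes the first leukotriene. Its level was -0.36, -1.05, -0.44 and -0.92 in control, -0.80, -1.51, -0.61 and -1.09 with IL4, and -1.29, -1.60, -1.46 and -1.59 with emodin. Every emodin array lay below every control array, and IL4 overlapped both. The emodin group lay 1.73-fold below control (-0.79 ± 0.20, limma adjusted p = 0.00472). With only the 6 arrays labelled female that difference was -0.73 (limma adjusted p = 0.121). IL4 against control differed by -0.31 ± 0.20 (95% confidence interval -0.75 to 0.13, limma adjusted p = 0.348). Emodin with IL4 against IL4 alone stood at the threshold, at -0.48 ± 0.20 (limma adjusted p = 0.0516), and passed it on the spike-in scale (-1.57, limma adjusted p = 1.11e-05), with quantile scaling (limma adjusted p = 0.0246) and without IL4 replicate 2 (-0.65, limma adjusted p = 0.00935). It passed with the replicate number as a block as well (limma adjusted p = 0.00382), though the number was not taken to pair emodin arrays. *Scml4* (r = 0.903) and *Pafah2* (r = 0.888) ran closest to *Alox5*.

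*Alox5ap* encodes FLAP, the membrane protein that presents arachidonic acid to 5-lipoxygenase. Its level was 6.17, 6.56, 6.33 and 6.55 in control, 5.84, 5.95, 5.65 and 5.93 with IL4, and 6.38, 6.54, 6.45 and 6.84 with emodin. IL4 arrays lay below all others, and control and emodin overlapped. IL4 lowered it 1.47-fold (-0.56 ± 0.12, limma adjusted p = 0.00794), a call lost on the spike-in scale (-0.43, limma adjusted p = 0.129) and with only the 6 arrays labelled female (-0.47, limma adjusted p = 0.262). Emodin with IL4 was 1.64-fold above IL4 alone (0.71 ± 0.12, limma adjusted p = 0.000314), with the sign turned on the spike-in scale (-0.37, limma adjusted p = 0.0537). Against control it differed by 0.15 ± 0.12 (limma adjusted p = 0.304), or by -0.81 on the spike-in scale (limma adjusted p = 0.000633). *Cdo1* (r = 0.969) and *Fabp3* (r = 0.960) had the most similar patterns.

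*Ltc4s* encodes leukotriene C4 synthase, which joins glutathione to leukotriene A4 and so starts the cysteinyl leukotrienes. Its level was 1.81, 1.88, 1.76 and 1.72 in control, 1.83, 1.78, 1.98 and 2.01 with IL4, and 2.87, 2.52, 2.61 and 2.82 with emodin. The emodin arrays lay above the other 8, which overlapped. Emodin with IL4 was 1.75-fold above IL4 alone (0.81 ± 0.09, limma adjusted p = 1.31e-05) and 1.88-fold above control (0.91 ± 0.09, limma adjusted p = 4.95e-06), but on the spike-in scale these differences were -0.28 and -0.05 and not called (limma adjusted p = 0.133 and 0.804). IL4 against control differed by 0.11 ± 0.09 (95% confidence interval -0.10 to 0.31, limma adjusted p = 0.490). *Pabpc4* (r = 0.983) and *Mst1r* (r = 0.980) ran closest to it, and 195 genes exceeded 0.95.

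*Lta4h* encodes leukotriene A4 hydrolase, which makes leukotriene B4. Its level was 4.73, 5.06, 5.31 and 4.54 in control, 4.96, 4.98, 5.26 and 4.58 with IL4, and 5.07, 5.22, 5.44 and 4.98 with emodin. All groups overlapped. It differed by 0.04 ± 0.18 for IL4 (95% confidence interval -0.36 to 0.44, limma adjusted p = 0.924), and by 0.23 ± 0.18 for emodin with IL4 against IL4 (-0.17 to 0.63, limma adjusted p = 0.280). Against control emodin with IL4 differed by 0.27 ± 0.18 (-0.13 to 0.67, limma adjusted p = 0.218). With the replicate number as a block both emodin differences were called (limma adjusted p = 0.0224 and 0.0120), though the number was not taken to pair emodin arrays. On the spike-in scale the sign turned and the emodin group was lower, by -0.85 against IL4 (limma adjusted p = 0.000133) and by -0.69 against control (limma adjusted p = 0.000836).

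**Figure D2:**
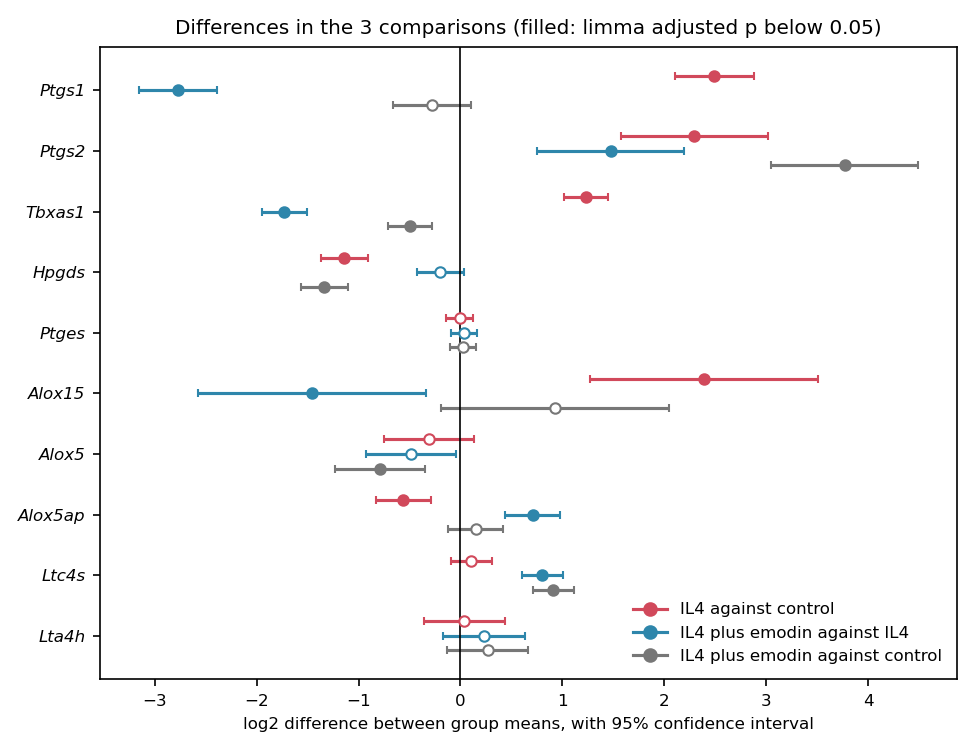
Log2 differences between group means for the 10 enzymes in the 3 comparisons, each with its 95% confidence interval and filled where the limma adjusted p is below 0.05 (n = 4 arrays per group; *Ptges* by its brighter probe). *Ptgs1* moves by 2.49 with IL4 and by -2.77 when emodin is added, while *Ptgs2* is positive in all 3 comparisons.

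**Figure D3:**
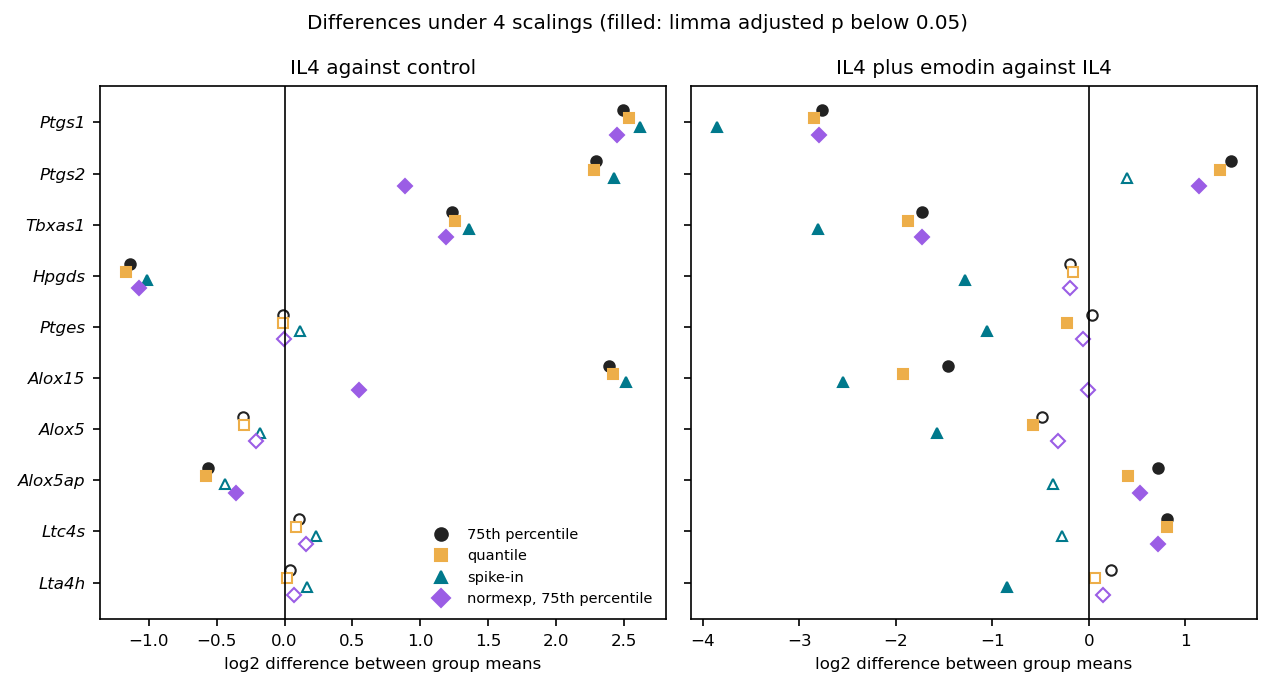
Log2 differences of the 10 enzymes under 4 scalings of the arrays, for IL4 against control at the left and IL4 plus emodin against IL4 at the right, filled where the limma adjusted p is below 0.05. The left panel changes little between scalings apart from *Alox15* and *Ptgs2* with normexp (0.55 and 0.89). In the right panel the spike-in values lie about 1 log2 unit to the left of those on the 75th percentile scale. *Alox15* there runs from -2.54 on the spike-in scale to -0.01 with normexp.

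The plot of the scalings shows which enzymes keep their direction. *Ptgs1* and *Tbxas1* were called lower with emodin than with IL4 alone on the 75th percentile, quantile, spike-in and normexp scales, and *Alox5* on the quantile and spike-in scales. *Ptgs1* ran from -3.85 on the spike-in scale to -2.77 on the main one, and *Tbxas1* was -2.81 on the spike-in scale. For IL4 against control, *Ptgs1*, *Ptgs2*, *Tbxas1* and *Alox15* were called higher and *Hpgds* lower on all 4 scales, with *Alox15* at 0.55 and *Ptgs2* at 0.89 with normexp. The 4 scales share the same arrays and the same filter on dim probes, so they are not separate evidence. *Ptgs2* and *Alox15* passed that filter only through groups where they were high.

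Around the enzymes, 71 other genes of the pathway were counted in 7 lists, and 52 passed the filter on dim probes. With IL4, 9 of the 52 were higher and 7 lower than control; with emodin 16 were higher and 13 lower than with IL4, and 16 higher and 11 lower than control. Of all genes, 8.98% and 8.56% were called in the first comparison, 39.4% and 26.5% in the next and 37.3% and 25.6% in the last, so the emodin counts were near or below the whole array's shares. On the spike-in scale the counts became 10 and 1 for IL4, 1 and 44 for emodin against IL4, and 2 and 39 against control, beside all-gene shares of 8.73% and 3.1%, 3.46% and 80.7%, and 4.12% and 75.6%. The 7 lower with IL4 became 3 without control replicate 2 or control replicate 3, and 4 without IL4 replicate 1, 2 or 4. Over the whole array 1786 genes were lower with IL4, or 1310 to 1416 with those arrays left out. With the replicate number as a block, which pairs these arrays, IL4 gave 12 higher and 10 lower, beside 2645 and 2657 of all 20862 genes. Of the 10 leukotriene and lipoxin receptor genes 4 were tested, with 2 higher and 1 lower for IL4, 0 higher and 3 lower for emodin against IL4, and 0 higher and 3 lower against control.

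*Ltb4r1* encodes the high-affinity receptor of leukotriene B4. Its level was -0.86, -0.99, -0.79 and -0.88 in control, 2.37, 2.04, 2.00 and 2.36 with IL4, and -1.06, -1.44, -1.24 and -1.03 with emodin. The IL4 arrays stood far above the others, and emodin arrays lay just below control. IL4 raised it 8.41-fold (3.07 ± 0.12, limma adjusted p = 1.07e-08), and emodin with IL4 was 10.4-fold below IL4 alone (-3.38 ± 0.12, limma adjusted p = 1.37e-09). The difference from control, -0.31 (limma adjusted p = 0.0341), was lost without any 1 of 5 arrays: control replicates 1, 3 and 4 and emodin replicates 2 and 3 (limma adjusted p = 0.0609 to 0.0993), and with only the 6 arrays labelled female (0.221). It was also lost with normexp (-0.13, limma adjusted p = 0.253) and with normexp then quantile (limma adjusted p = 0.0522), and was -1.27 on the spike-in scale (limma adjusted p = 1.08e-05).

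*Cysltr2*, a receptor of cysteinyl leukotrienes, read -3.46, -3.08, -2.85 and -3.77 in control, -0.93, -0.98, -0.88 and -1.16 with IL4, and -1.82, -3.22, -3.02 and -3.33 with emodin. IL4 arrays lay above all others, and control and emodin overlapped. IL4 raised it 4.94-fold (2.30 ± 0.30, limma adjusted p = 0.000199), and emodin with IL4 was 3.63-fold below IL4 alone (-1.86 ± 0.30, limma adjusted p = 0.000169). *Cysltr1*, the other such receptor, read 1.03, 1.19, 1.08 and 0.94 in control, 1.03, 0.89, 0.92 and 0.70 with IL4, and -1.67, -1.44, -1.54 and -1.32 with emodin. The emodin arrays lay below all 8 others, and those overlapped. With emodin *Cysltr1* was 5.19-fold below IL4 alone (limma adjusted p = 4.22e-09) and 5.87-fold below control (limma adjusted p = 2.47e-09), while IL4 alone did not pass the test (limma adjusted p = 0.260). A second *Cysltr1* probe gave -3.54 against IL4. *Fpr2*, which encodes a formyl peptide and lipoxin receptor, fell at least 3.68-fold with IL4 on the main scale (limma adjusted p = 0.000566). With emodin it was at least 2.28-fold below control on that scale (limma adjusted p = 8.94e-05). Both calls held in all 23 other settings, but the smallest measured log2 differences there, -0.87 and -0.52, fell short of these folds. *Fpr2* passed the filter on dim probes only through the control arrays, so its p-values against control are not independent of that filter.

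Of the 9 prostanoid receptor genes 4 were tested, and *Ptger2* and *Ptgir* were called. Over all genes 17.5% were called for IL4, and 65.9% and 62.9% for emodin against IL4 and against control. *Ptger2*, a prostaglandin E2 receptor, read 1.24, 1.38, 1.41 and 1.11 in control, 3.15, 3.28, 3.07 and 3.04 with IL4, and 2.61, 2.38, 2.38 and 2.31 with emodin. The groups did not overlap, and emodin lay between control and IL4. IL4 raised it 3.60-fold (1.85 ± 0.10, limma adjusted p = 1.28e-07). Emodin with IL4 was 1.64-fold below IL4 alone (limma adjusted p = 4.22e-05) and 2.20-fold above control (limma adjusted p = 9.96e-07), or 0.18 above control on the spike-in scale (limma adjusted p = 0.214). *Ptgir*, the prostacyclin receptor, rose by 1.08 with IL4 (limma adjusted p = 0.000271) and was lower by -0.57 with emodin than with IL4 (limma adjusted p = 0.00445). Its excess over control with emodin, 0.51 (limma adjusted p = 0.00912), became -0.45 on the spike-in scale. With only the 6 arrays labelled female the *Ptgir* values gave limma adjusted p of 0.0790 for IL4 and 0.0674 for emodin against IL4.

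**Figure D4:**
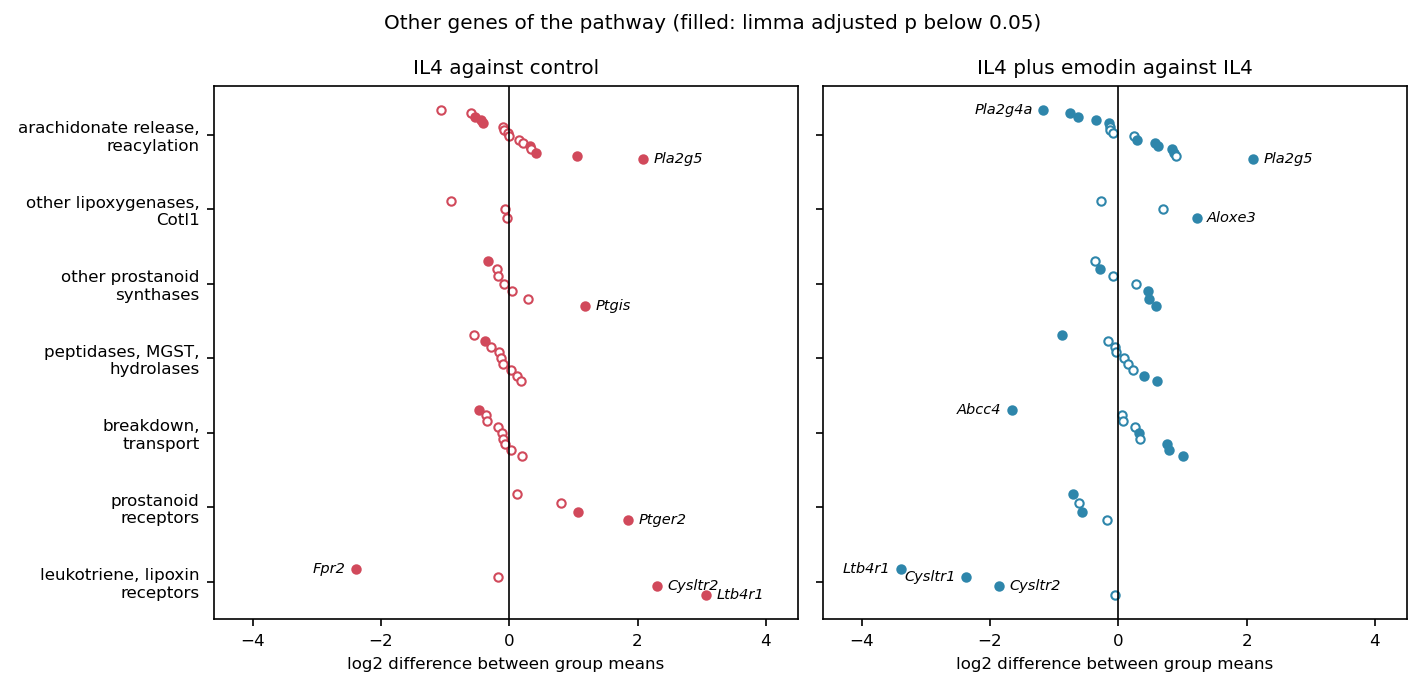
Log2 differences of the 52 tested pathway genes other than the 10 enzymes, grouped by list, for IL4 against control at the left and IL4 plus emodin against IL4 at the right, filled where the limma adjusted p is below 0.05. Called genes of the largest size are named, with *Ltb4r1* at 3.07 and -3.38.

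Upstream of the enzymes, the list of arachidonate release and reacylation had 16 of 18 genes tested. IL4 gave 4 higher and 3 lower, emodin against IL4 6 higher and 5 lower, and emodin against control 6 higher and 4 lower. Over all genes the shares called were 8.98% and 8.56%, 39.4% and 26.5%, and 37.3% and 25.6%. *Pla2g5*, a secreted phospholipase A2, read -3.07, -2.63, -2.17 and -3.66 in control, -1.15, -0.41, -0.24 and -1.40 with IL4, and 0.85, 1.54, 1.84 and 0.95 with emodin. The groups rose in that order without overlap. The steps were 4.24-fold for IL4 (2.08 ± 0.35, limma adjusted p = 0.00142) and 4.27-fold for emodin against IL4 (2.10 ± 0.35, limma adjusted p = 0.000245), and the latter was 1.01 on the spike-in scale (limma adjusted p = 0.00608). Emodin with IL4 lay 4.18 above control, or 18.1-fold (limma adjusted p = 1.01e-06), and 3.22 on the spike-in scale. *Mgll*, the monoacylglycerol lipase, read 4.63, 4.35, 5.17 and 3.41 in control and 3.41, 3.33, 4.25 and 2.31 with IL4. The groups overlapped, but each IL4 array lay below the control array of its number. The difference of -1.06 was not called (limma adjusted p = 0.170) except with the replicate block (limma adjusted p = 1.94e-05).

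The cytosolic phospholipase *Pla2g4a*, which releases arachidonic acid within the cell, moved the other way. It was 2.25-fold lower with emodin than with IL4 (-1.17 ± 0.12, limma adjusted p = 4.46e-06). *Pla2g15*, a lysosomal phospholipase, rose by 1.05 with IL4 and lay 1.62 above control with emodin (limma adjusted p = 6.47e-06 and 2.85e-08), or 0.66 above control on the spike-in scale. Against IL4 alone emodin gave *Pla2g15* a difference of 0.57 (limma adjusted p = 0.000132), with the sign turned on the spike-in scale (-0.52, limma adjusted p = 0.00858). *Acsl3* and *Acsl4*, which activate fatty acids for reacylation, were lower with emodin than in control, by -1.22 and -1.17 (limma adjusted p = 0.00014 and 5.41e-06). *Lpcat3*, a reacylating enzyme, fell by 0.44 with IL4 (limma adjusted p = 0.0133; -0.32 and 0.0951 on the spike-in scale). *Pla2g7*, the platelet-activating factor acetylhydrolase, and *Plaa*, a phospholipase-activating protein, lay 0.87 and 0.84 above IL4 with emodin (limma adjusted p = 0.000173 and 1.66e-05), but -0.22 and -0.25 on the spike-in scale. The fall of *Pla2g7* with IL4 (-0.53, limma adjusted p = 0.0215) was lost without control replicates 2 or 3 or IL4 replicates 3 or 4 (limma adjusted p = 0.0523 to 0.0656).

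Among the 7 other prostanoid synthases IL4 gave 1 higher and 1 lower, emodin against IL4 3 and 1, and emodin against control 4 and 0. Of all genes, 17.5% were called for IL4 and 65.9% and 62.9% in the emodin comparisons. *Ptgis*, prostacyclin synthase, rose by 1.19 with IL4 (limma adjusted p = 0.0122, or 0.0693 with only the 6 arrays labelled female). It lay 0.83 above control with emodin (limma adjusted p = 0.0230), which was lost without control replicate 1 (0.0696) or emodin replicate 4 (0.0686) and stood at -0.13 on the spike-in scale. *Cbr1*, *Prxl2b* and *Akr1b3*, reductases of prostaglandin metabolism, were 0.59, 0.48 and 0.47 above IL4 with emodin (limma adjusted p = 0.000137, 0.000202 and 0.00115), with the sign turned on the spike-in scale (-0.49, -0.61 and -0.62). *Ptges2*, another prostaglandin E synthase, was lower by -0.29 (limma adjusted p = 0.0293), which was lost without IL4 replicates 2 or 3 or emodin replicates 1 or 2 (0.0723 to 0.0790). *Cbr1* fell by 0.33 with IL4 (limma adjusted p = 0.0292), which was lost without any 1 of 6 arrays, these being control replicates 2, 3 and 4 and IL4 replicates 1, 2 and 4 (0.0510 to 0.0880). Above control with emodin, *Prxl2b* differed by 0.39, *Akr1b3* by 0.28 and *Cbr1* by 0.27, with the sign of all 3 turned on the spike-in scale, and that of *Akr1b3* also with quantile scaling (-0.04). The call of *Cbr1* was lost without control replicate 1 or emodin replicates 2 or 3, and that of *Akr1b3* without control replicates 1 or 4 or emodin replicates 3 or 4 (limma adjusted p = 0.0506 to 0.0711).

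In breakdown and transport, 9 genes were tested. There were 0 higher and 1 lower for IL4, 4 and 1 for emodin against IL4, and 3 and 2 against control. Beside these, 8.98% and 8.56%, 39.4% and 26.5%, and 37.3% and 25.6% of all genes were called. *Abcc4*, which exports prostaglandin E2 from cells, was 3.15-fold below IL4 with emodin (-1.66 ± 0.08, limma adjusted p = 1.29e-08) and 3.40-fold below control (limma adjusted p = 8.37e-09). *Ptgr2*, a prostaglandin reductase, was 1.00 ± 0.09 above IL4 (limma adjusted p = 2e-06) and -0.08 on the spike-in scale. *Cyp4f13* and *Slco2a1*, the prostaglandin transporter, lay 0.76 and 0.78 above IL4 (limma adjusted p = 2.6e-06 and 0.0256) and -0.32 and -0.30 on the spike-in scale. The *Slco2a1* call was lost without IL4 replicates 1 or 3 or emodin replicates 2 or 4. It was also lost with quantile scaling and the value table (limma adjusted p = 0.157 for both) and with normexp then quantile (0.322). *Slco2a1* lay near background, at 32.9 to 85.8 intensity units with emodin, where 3 of 4 arrays were above background. *Cyp4f16* fell by 0.47 with IL4 (limma adjusted p = 0.00672), or 0.104 on the spike-in scale and 0.332 with only the 6 arrays labelled female.

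Among leukotriene peptidases, microsomal glutathione transferases and hydrolases, 9 of 12 were tested. There were 0 higher and 1 lower for IL4, 2 and 1 for emodin against IL4, and 1 and 2 against control. The shares of all genes called in either direction were 17.5%, 65.9% and 62.9% in these comparisons. *Mgst2*, which can also make leukotriene C4, was lower by -0.88 with emodin than with IL4 (limma adjusted p = 0.00467) and by -0.70 than in control (limma adjusted p = 0.0175, or 0.0502 without control replicate 3). *Dpep2*, a leukotriene dipeptidase, fell by 0.37 with IL4 (limma adjusted p = 0.0319), which was lost without any 1 of 6 arrays, these being control replicates 2 and 3 and each IL4 array (0.0524 to 0.0853). With emodin *Dpep2* lay 0.60 above IL4 (limma adjusted p = 0.000373) and *Gpx4*, a lipid peroxidase, 0.41 above (limma adjusted p = 0.0172), both with the sign turned on the spike-in scale (-0.49 and -0.68), and *Gpx4* also with quantile scaling (-0.17). Without IL4 replicate 1 *Gpx4* gave 0.0516. *Mgst3* lay -0.44 below control (limma adjusted p = 0.0203), which was lost without control replicates 2 or 4 or emodin replicates 1 or 2. The list of other lipoxygenases, which also holds the 5-lipoxygenase-binding protein *Cotl1*, had 3 of 6 genes tested. *Aloxe3* was the one called, 1.22 above IL4 with emodin (limma adjusted p = 0.00302) and 0.14 on the spike-in scale (limma adjusted p = 0.650). Its signal was near background, at 37.0 to 59.3 intensity units with IL4 and 61.7 to 77.9 with emodin. *Cotl1* differed by -0.27 from IL4 (limma adjusted p = 0.0708), and was called lower with quantile scaling (-0.84, limma adjusted p = 0.000583) and on the spike-in scale (-1.36, limma adjusted p = 1.84e-05).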

How the data were processed

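RNA of 12 cultures was labelled with Cy3 and hybridised to Agilent mouse arrays. Each scanner file gives background-subtracted intensity for every spot, made with Feature Extraction 10.7.3.1 per the file headers. Log2 values deposited as a separate table tracked quantile-normalized intensities centred per probe on every array, and served as an alternative. The median spot signal was used for normexp (offset 50). 0 columns belonged to other samples.

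Control and outlier spots were left out, spots of a probe averaged, and log2 intensity taken minus the array's 75th percentile. A probe entered the fit where 1 or more groups had it well above background throughout (27705 probes), and the brightest probe stood for a gene. Probes matched to 1 RefSeq symbol numbered 27509, and 28172 had none. Group means over all 12 arrays were fitted with limma 3.58.1 (R 4.3.3) with Benjamini-Hochberg adjustment over 20862 genes, called below 0.05. The fit was tested on simulated data. Promoters were searched and figures drawn in Python with matplotlib.

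The members and gene lists were chosen with earlier results of these data known. Named were all enzymes and, per list and comparison, up to 4 called genes of largest size, plus the 2 genes most correlated with each called enzyme except *Alox15*; *Mgll* and *Cotl1* were named after their values were seen. Groups and numbers came from the sample titles. Replicates are described as biological, but whether each came from its own mouse is not given in the sources used here, so the p-values reflect only how far these arrays spread, which may be technical. For IL4 against control same-numbered arrays deviated together (r = 0.524, 0.311, 0.334 and 0.436), so the number pairs them there; the number is also the column on the slide. Precision is limited by 4 arrays per group.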

Additional observations from a re-analysis of the deposited data

Results flagged for a closer look

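In 120 groups of 4 arrays, those of the 11 enzyme probes and of the called pathway genes named by the rule, 3 arrays stood apart from the other arrays of their group by Dixon's criterion, which chance gives in about 1 of 20 groups. For *Ptgs2*, IL4 replicate 1 lay at -3.41 while the others lay between -2.40 and -2.19. For *Mgst2*, emodin replicate 3 lay at 0.43 while the others lay between -0.37 and -0.24. For *Pla2g7*, emodin replicate 2 lay at 7.62 while the others lay between 7.09 and 7.18.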

How the results depend on the processing

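For the 10 enzymes, 319 values kept their direction and side of the threshold under other settings, with 6 weaker, 15 stronger and 14 turned, and 351 did so with 1 array left out, with 3 weaker and 6 stronger. On the spike-in scale the enzymes called were 1 lower for IL4 against control, 0 higher and 7 lower for emodin with IL4 against IL4, and 1 higher and 7 lower against control. Quantile scaling, normexp then quantile, the deposited value table and the replicate block each gave 5 enzymes lower for emodin against IL4. Over the whole array these settings called 6451, 6445, 6455 and 6092 of 20862 genes lower, beside 5538 in the main fit. Requiring signal above background on all 12 arrays, which leaves out *Ptgs2* and *Alox15*, gave 2 higher for IL4 and 1 higher for emodin against control. Beside these, 1661 and 7213 of 18207 genes were higher. Only the 6 arrays labelled female, an alternative chosen after seeing the data, gave 1 lower for IL4, beside 291 of 20862 genes. With 1 array left out, enzymes called numbered 4 to 4 higher and 2 to 2 lower for IL4, 3 to 3 and 2 to 4 for emodin against IL4, and 2 to 3 and 3 to 3 against control. The replicate block changed no enzyme call for IL4 against control. Same-numbered emodin arrays correlated by 0.438, 0.0935, 0.310 and 0.396 with IL4 and by 0.515, 0.0559, 0.336 and 0.374 with control. Replicate 2 missed the limit asked of every pair, so the number was not taken to pair emodin arrays, although each correlated best with its own number except replicate 2 with control. There the block gave 4 higher and 5 lower against IL4, beside 9004 and 6092 of 20862 genes. It added *Alox5* (limma adjusted p = 0.00382), *Hpgds* (0.0247) and *Lta4h* (0.0224) against IL4, and against control *Lta4h* (0.0120). A slide block was not run for emodin, which had a slide of its own.

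Signs turned on the spike-in scale, and are listed for the enzymes and for pathway genes named by the rule in the same comparison. *Pla2g15* against IL4, named for other comparisons, turned too (-0.52). For emodin against IL4 the values were -0.37 for *Alox5ap*, -1.05 for *Ptges*, -0.28 for *Ltc4s*, -0.85 for *Lta4h*, -0.22 for *Pla2g7*, -0.25 for *Plaa*, -0.084 for *Ptgr2*, -0.30 for *Slco2a1*, -0.32 for *Cyp4f13*, -0.49 for *Dpep2*, -0.68 for *Gpx4*, -0.49 for *Cbr1*, -0.61 for *Prxl2b* and -0.62 for *Akr1b3*. Against control they were -0.81 for *Alox5ap*, -0.94 for *Ptges*, -0.046 for *Ltc4s*, -0.69 for *Lta4h*, -0.26 for *Cyp4f13*, -0.28 for *Slco2a1*, -0.45 for *Ptgir*, -0.13 for *Ptgis*, -0.57 for *Prxl2b*, -0.68 for *Akr1b3*, -0.69 for *Cbr1* and -0.52 for *Gpx4*. With quantile scaling *Ptges* stood at -0.22 against IL4 and -0.23 against control, *Gpx4* at -0.17 and -0.095, and *Akr1b3* at -0.035 against control. Normexp then quantile gave *Ptges* -0.26 and -0.26 and *Gpx4* -0.18 and -0.12. The value table gave *Ptges* -0.23 and -0.24, *Gpx4* -0.17 and -0.10, and *Akr1b3* -0.040 against control. The all-gene median moved with the spike-in scale as given above; other causes were not tested.

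Over the whole array, genes called for IL4 numbered 3659, or 5540 with normexp, 7321 without the filter on dim probes and 891 with the arrays labelled female. For emodin against IL4 they numbered 13750, or 22743 and 8674 in the last pair of settings, and against control 13125, or 19856 and 8141. The split of higher and lower calls was 8212 and 5538 against IL4, 6134 and 6451 with quantile scaling and 722 and 16834 with spike-in scaling. Against control it was 7780 and 5345, 5587 and 6300, and 860 and 15769. Of the pathway genes called lower with IL4, 7 became 14 without the filter, 2 with the arrays labelled female and 3 to 4 without 1 of 5 arrays. Those higher with emodin against control, 16, became 9 with quantile scaling. *Alox15*, *Ptgs2* and, in the treated groups, *Fpr2* lay near background, which limits their folds.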

Other observations

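Probes of one pathway gene sometimes disagreed; the genes given here were chosen after their values were seen, and the dimmer probes were fitted on the 75th percentile scale alone. For *Acsl1*, which activates fatty acids, the brighter probe was lower with emodin than with IL4 alone (-0.34, limma adjusted p = 0.00463) and a dimmer probe was higher (0.89, limma adjusted p = 0.000145 over all probes). Probes of *Ptges3*, the cytosolic prostaglandin E synthase, included one at 0.55 for emodin with IL4 against IL4 (limma adjusted p = 1.87e-05 over all probes) beside the brightest, which was not called.

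Markers of other cells also differed between the groups. Marker differences here are on the 75th percentile scale alone. For emodin with IL4 against IL4 that scale called 39.4% of all genes higher and 26.5% lower. The all-gene median moved from 0.17 to -0.92 on the spike-in scale, so a small rise need not keep its sign there. *Cd79b* and *Ms4a1* of B cells were lower with emodin than with IL4 alone (-2.16 and -2.19; limma adjusted p = 1.28e-05 and 0.00164). *Cd3e* of T cells was higher (1.03, limma adjusted p = 0.00285). Of 10 macrophage markers 4 were lower, among them *Fcgr1* and *Icam2* (-2.89 and -1.59; limma adjusted p = 5.07e-08 and 2.49e-07), and 2 were higher, *Lyz2* and *Adgre1* (0.32 and 0.18; limma adjusted p = 0.0167 and 0.0483). Summed levels, as multiples of the 75th percentile, were 20.2 to 87.0 in control, 22.7 to 113 with IL4 and 28.3 to 125 with emodin for mesothelial and fibroblast markers. Their part in the results was not tested.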
